A study of Homo sapiens with 58 samples.

Results

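Claudins and other genes of the tight junction were followed in H1 cells, an established line of human embryonic stem cells, while the cells were led by way of mesendoderm and presomitic mesoderm to somites. The set was chosen by gene symbol and holds 9 of the 19084 genes in the deposited tables: the claudins CLDN3, CLDN4, CLDN5, CLDN6, CLDN7 and CLDN10, occludin (OCLN), the scaffold ZO-1 (TJP1) and cingulin (CGN). All 9 symbols were found. The members and the other gene lists used below were chosen with earlier results of these data known. Shares of them that were called, set beside those of all genes, are therefore descriptions only. RNA-seq was made from 12 daily libraries, 3 on each of 4 days, and from a presomitic mesoderm time course of 46 libraries, 2 per time point, with 23 time points spaced 30 min apart from 30 to 690 min. All cells were wild-type H1 at passage p30-p40. Day0 cells were undifferentiated and grown in E8 medium. Day1 cells, labelled mesendoderm, had been seeded in E8 with activin A at 100 ng/mL and the Wnt pathway activator CHIR99021 at 3 µM. Day2 cells, labelled presomitic mesoderm, had then been moved to E6 medium, which is E8 without FGF2 and TGFβ1, with CHIR99021 at 3 µM, FGF2 at 100 ng/mL, the TGFβ receptor inhibitor A83-01 at 2 µM and the BMP antagonist NOGGIN at 100 ng/mL. Day3 cells, labelled somite, were in E6 with the MEK inhibitor PD0325901 at 1 µM, the Wnt inhibitor IWR1 at 2.5 µM, A83-01 at 2 µM and NOGGIN at 100 ng/mL. For the time course, neither the medium nor the zero point is stated in the sources at hand. Nothing says that replicates were separate cultures, so p-values measure only library-to-library spread, which can be technical.

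Tight junctions are belts of strands that seal the space between neighbouring epithelial cells near their apical side. Claudins are the membrane proteins that build the strands, occludin is a further membrane protein of the strands, ZO-1 is the scaffold that ties them to actin, and cingulin binds ZO-1 and myosin on the cytoplasmic side. Human embryonic stem cells grow as an epithelium, cells leaving the primitive streak lose their epithelial contacts, and somites later round up into epithelial balls, so that these genes are read as markers of the epithelial state along this path.

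Sequences near a start site are shown for CLDN6, CLDN7, OCLN and CGN, which were called lower in the first or second step. TJP1, which was not, is shown as well. The letters sought include the E-box CAGGTG, which SNAIL and ZEB repressors are known to bind. The sequences and start sites are from RefSeq on GRCh38.p14, whereas the reads were aligned to another build, and 8 of the 9 members had at least 1 start site in that set. The window searched ran from 250 bases before to 50 bases after the start site, on both strands, for CAGGTG and for the GC box GGGCGG, which do not overlap each other. CAGGTG was found in 6 of the 14 member windows, belonging to 5 members, against 20.6% of all 35116 windows of the same length. GGGCGG was found in 10 of the 14 member windows, against 45% of all windows. The CLDN7 stretch below holds a pair of matches just before the start site at chr17:7262478. The OCLN stretch holds 1 match at position -33 and the TJP1 stretch 1 at position -88. The CLDN6 stretch holds 1 match at position 33, after the start site. All 250 bases before the start sites used for CLDN7, OCLN and CLDN6 lie in annotated exons of these genes. For TJP1 0 of the 250 do. At other start sites, CLDN7 (chr17:7263213) and TJP1 had 0 matches and OCLN (chr5:69492790) had 2. Capitals mark CAGGTG or its reverse complement, and each stretch is written 5′ to 3′ on the gene's strand. A match is a description of letters and was not tested for binding.

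CLDN7, chr17:7262481-7262510, minus strand: cctacatatactCAGGTGcgcccCACCTGt
OCLN, chr5:69492502-69492531, plus strand: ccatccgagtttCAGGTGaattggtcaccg
CLDN6, chr16:3018134-3018163, minus strand: ttatctccttcgCAGGTGagtccggggcta
TJP1, chr15:29969120-29969149, minus strand: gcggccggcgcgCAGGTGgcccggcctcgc

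The promoter of CGN is shown as well, since CGN was the member called lower on Day1. None of the letters searched as CAGGTG lie in its window, and GGGCGG occurs 5 times. The 250 bases before its start site at position 151511387 overlap no annotated exon of CGN.

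CGN, chr1:151511137-151511386, plus strand: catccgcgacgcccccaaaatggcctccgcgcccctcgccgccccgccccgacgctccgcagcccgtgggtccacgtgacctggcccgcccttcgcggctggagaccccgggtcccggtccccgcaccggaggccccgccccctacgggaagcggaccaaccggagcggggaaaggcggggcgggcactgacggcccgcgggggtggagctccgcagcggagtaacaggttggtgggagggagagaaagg

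Total expected counts per library ran from 3.16 to 7.81 M in the daily series, with Day2 the shallowest at 3.16 to 3.6 M, and from 2.53 to 8.96 M in the course. Pearson r between replicate libraries, taken over genes from log2 CPM, was 0.953 to 0.986 for the days and 0.967 to 0.991 for the course. The day labels were checked against stage markers: 6 stem cell markers summed to 4484 to 4939 TPM at Day0, 4 mesendoderm markers to 809 to 879 TPM at Day1, 5 presomitic markers to 206 to 634 TPM at Day2 and 5 somite markers to 794 to 960 TPM at Day3. In the same order, the highest sum in a library of any other day was 2898 TPM (Day1), 82.6 TPM (Day2), 177 TPM (Day3) and 27.7 TPM (Day2). The presomitic set thus separated Day2 from Day3 least clearly, and its member DLL1 was called higher in Day3 against Day2. Levels below are TPM, a unit per transcript length that allows genes to be set side by side. Log2 changes are later minus earlier and come from expected counts fitted with edgeR's quasi-likelihood test with Benjamini-Hochberg adjustment over all genes tested. Every adjusted p below is from that fit unless another tool is named. A gene was called between days when its adjusted p was under 0.05 and its log2 change was at least 1 in size. The SE beside a log2 change is a standard error worked back from the test, as the size of the change divided by the square root of the F statistic.

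From Day0 to Day3 most of the set fell. Of the 9 members, 7 passed the filter on low counts (CLDN3 and CLDN5 did not), and 6 of those 7 were called as changing over the 4 days, against 43.6% of the 12765 genes tested. CLDN6, CLDN7, CLDN10, OCLN and CGN were called lower at Day3 than at Day0, which is 5 of 7 members against 7.09% of all genes called lower. No member was called higher at Day3 than at Day0 by edgeR or DESeq2, against 7.07% of all genes called higher by edgeR. In that direction 0 members reached an unadjusted p under 0.05. The median log2 change of the 7 members was -2.26, beside 0.04 over all genes tested. The remaining tested members were not called in this comparison: CLDN4 had a log2 difference of -1.79 (SE 0.96, adjusted p = 0.214), and TJP1 lay between 52.4 and 90.3 TPM in all 12 daily libraries. In these bulk cultures, fewer cells of a type and less RNA per cell cannot be told apart.

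Members were called lower in the first and second steps of the protocol and called higher in the last. In Day1 against Day0, 1 member was called lower (CGN, against 2.46% of all genes) and 0 were called higher by edgeR or DESeq2 (2.72% of all genes), with 3 lower and 0 higher at an unadjusted p under 0.05. In Day2 against Day1, CLDN6, CLDN7 and OCLN were called lower, against 8.16% of all genes. In that step 0 members were called higher by either tool, against 3.58% of all genes called higher by edgeR. Also, 0 members were higher at an unadjusted p under 0.05. In Day3 against Day2, CLDN4 and CGN were called higher, against 9.03% of all genes. In that step 0 members were called lower by edgeR or DESeq2, against 4.03% of all genes, and 1 (TJP1) was lower at an unadjusted p under 0.05. The comparisons of adjacent days share a day, and the values of each are given side by side below. Without TMM scaling the median of all genes moved to -0.19 in Day2 against Day1, 0.32 in Day3 against Day2 and 0.11 in Day3 against Day0. That setting also moved the split of calls from 457 higher and 1042 lower to 317 and 1323 in Day2 against Day1, and from 1153 higher and 515 lower to 1696 and 267 in Day3 against Day2. No member's call changed with it, and the difference of TJP1 between Day2 and Day1 changed sign, from 0.14 to -0.01.

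**Figure D1:**
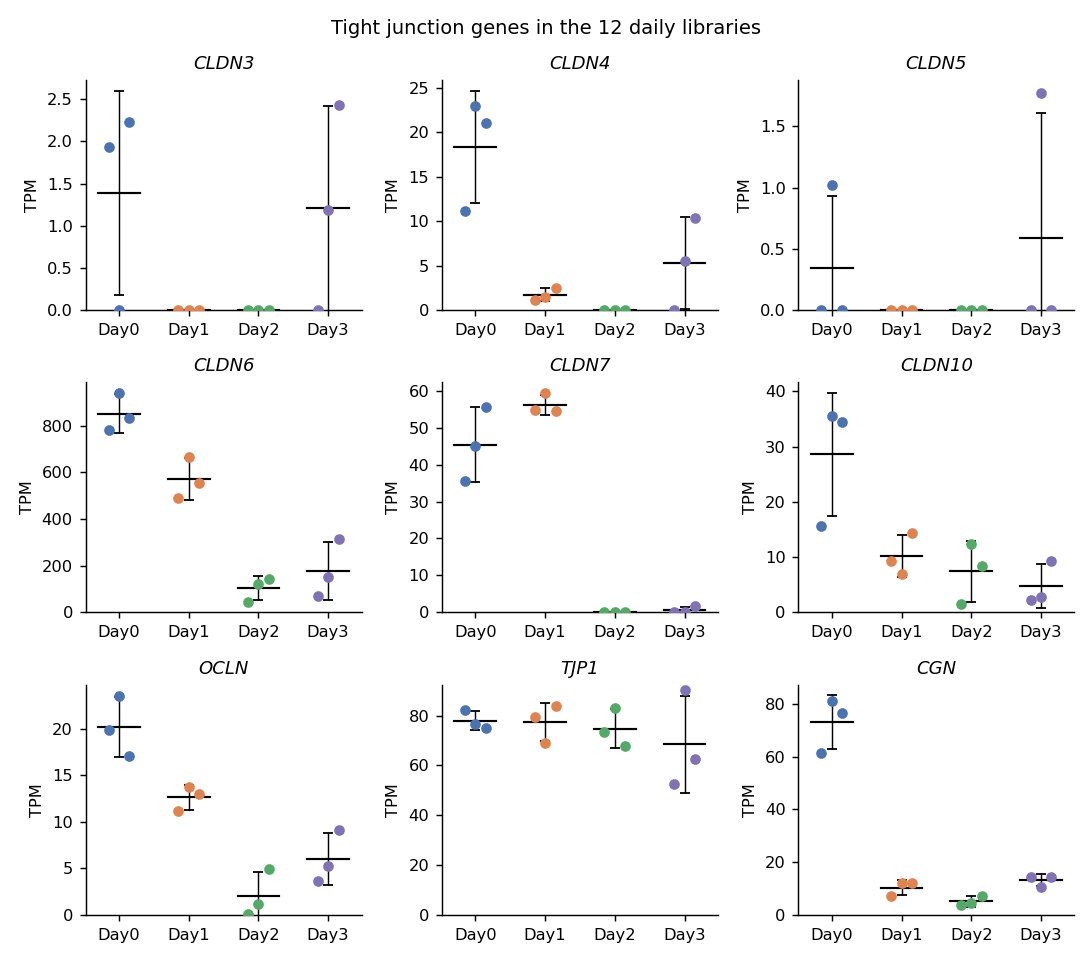
TPM of each member (vertical axes, each starting at 0) in the 3 libraries of Day0, Day1, Day2 and Day3 (points), with the mean as a horizontal line and the SD as a bar. CLDN6, CLDN7, OCLN and CGN sit high at Day0 and low at Day2, and TJP1 lies between 52.4 and 90.3 TPM throughout.

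CLDN6, a claudin of embryonic epithelia and pluripotent cells, was the most abundant member. Its level was 780.73, 941.61 and 834.23 TPM in the Day0 libraries and 490.69, 666.50 and 556.00 TPM at Day1. It was 45.41, 121.46 and 144.67 TPM at Day2 and 69.13, 150.75 and 314.15 TPM at Day3. Every Day0 and Day1 library lay above every Day2 and Day3 library, and Day2 and Day3 overlapped. The mean fell from 852 ± 81.9 TPM (SD, n = 3) at Day0 to 571 ± 88.9 TPM (SD, n = 3) at Day1, a log2 change of -0.46 with SE 0.38 that was not called (adjusted p = 0.542). From Day1 to Day2 it fell 4.89-fold (log2 -2.29, SE 0.40, adjusted p = 0.00117), without overlap of the days. At Day3 it was 4.78-fold below Day0 (log2 -2.26, SE 0.39, adjusted p = 5.87e-04), and without Day3 replicate 3 the log2 difference was -2.90. The difference of Day3 from Day2 was 0.49 on the log2 scale (SE 0.39, adjusted p = 0.392), and without Day3 replicate 3 it was -0.15 (adjusted p = 0.818).

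CLDN7, a claudin of the lateral membrane that binds EPCAM, was on at Day0 and Day1 and off at Day2. It was at 35.49, 45.09 and 55.69 TPM at Day0 and 54.70, 59.29 and 54.62 TPM at Day1. All 3 Day2 libraries held 0 counts, and at Day3 the libraries held 0, 0 and 8 counts (0, 0 and 1.65 TPM). Day0 and Day1 overlapped and both lay far above the later days. The pooled counts were 638.66 at Day1 and 0 at Day2, so that CLDN7 was at least 143-fold lower at Day2, taking 3 counts over the group as the floor (adjusted p = 1.85e-05). A count of 0 in a Day2 library allows up to 3 counts, or 0.833 to 0.949 CPM, and this floor covers counting error only, since no molecular identifiers separate molecules from copied reads. At Day3 CLDN7 was 73.9-fold below Day0 (log2 -6.21, SE 0.65, adjusted p = 8.49e-06). That size rests on the 8 counts of Day3 replicate 3: without it the other Day3 libraries are both at 0, and the fitted log2 value of -10.27 (adjusted p = 1.5e-06) is no bound. C17orf81 (ELP5), which overlaps CLDN7 on the other strand, was at 29.7 to 39.8 TPM in the Day2 libraries and at 26.2 to 42.8 TPM in the Day0 libraries. Whether the authors' counting used strand is not stated, so reads of the 2 genes may not be told apart.

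CLDN4, a claudin that tightens the barrier against ions, followed another order of days. It was at 11.12, 22.93 and 21.01 TPM at Day0, at 1.13, 1.51 and 2.51 TPM at Day1, and had 0 counts in all 3 Day2 libraries. At Day3 its libraries were at 0, 5.51 and 10.32 TPM. Day0 lay above the rest without overlap, and Day3 overlapped Day1 and Day2. The difference of Day1 from Day0 was -3.30 on the log2 scale (SE 1.05) and missed the threshold (adjusted p = 0.0714), although it passed with DESeq2 (adjusted p = 0.0134). Over the other settings tried for this difference the adjusted p ran from 6.12e-04 (the 6 libraries of these days alone) to 0.219 (without Day1 replicate 1). Day2 was at least 4.8-fold below Day1 from 21.44 against 0 pooled counts (adjusted p = 0.0648, not called). This difference passed with DESeq2 (adjusted p = 0.0202), with no filter (0.0412), on log2(TPM + 0.1) with limma (0.0434) and without Day3 replicate 1 (0.0143). Day3 was called higher than Day2, at least 16.2-fold from 83.53 against 0 pooled counts (adjusted p = 0.0149). That call depends on Day3 replicate 3, which held 63.53 of those counts, and without it the adjusted p was 0.0531.

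CLDN10, which forms pores for small ions and is best known in kidney tubules, was highest at Day0. It was at 15.73, 35.50 and 34.51 TPM at Day0, 9.29, 6.99 and 14.38 TPM at Day1, 1.48, 12.46 and 8.33 TPM at Day2 and 2.29, 2.81 and 9.36 TPM at Day3. Day0 lay above all other days, and Day1, Day2 and Day3 overlapped one another. No step between neighbouring days was called (adjusted p = 0.192, 0.797 and 0.335 in order). At Day3 it was 5.76-fold below Day0 (log2 -2.53, SE 0.63, adjusted p = 0.00811), and without Day3 replicate 3 the log2 difference was -3.41 (adjusted p = 0.00279). The test for any change over the 4 days gave an adjusted p of 0.0145, which rose to 0.0643 without Day0 replicate 2 and to 0.0709 without Day0 replicate 3.

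CLDN3, a sealing claudin and the chromosome 7 neighbour of CLDN4, and CLDN5, the claudin of endothelium, were near 0 throughout. CLDN3 had 8.02, 0 and 6.93 counts in the Day0 libraries, 0 in all Day1 and Day2 libraries, and 0, 3 and 10.37 counts at Day3. CLDN5 had 4 counts in 1 Day0 library, 6 counts in 1 Day3 library and 0 in the other 10 daily libraries. In the course, CLDN3 was at 0 in 37 of 46 libraries and CLDN5 in 38 of 46, with highest levels of 1.87 and 1.7 TPM. Neither passed the filter on low counts in either series, so neither was tested. Of 12 endothelium markers, summing to 111 to 154 TPM at Day0, ROBO4 was at 0 in all daily libraries and CDH5 reached at most 0.51 TPM, whereas KDR was at 31.95 to 47.21 TPM and FLT1 at 39.80 to 58.04 TPM at Day0. KDR and FLT1 were called lower at Day3 than at Day0 (adjusted p = 2.88e-07 and 5.47e-06).

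CLDN6 made up most of the claudin mRNA on 3 of the 4 days. Of the summed TPM of 23 claudins, its share at Day0 was 83.6% to 88.1%, at Day1 78.2% to 82.2%, at Day2 28.8% to 71.7% and at Day3 65.3% to 81%. The sum itself was 886 to 1100 TPM at Day0, then 628 to 811 TPM, 157 to 206 TPM and 106 to 388 TPM on the days that followed. In Day2 replicate 1, CLDN11, the claudin of oligodendrocytes and Sertoli cells, held 51.9% of claudin TPM, above CLDN6. Day2 replicate 1 had the lowest CLDN6 and the highest CLDN11 of its day, and Day3 replicate 3 the highest CLDN3, CLDN4, CLDN6, CLDN7, CLDN10 and OCLN of its day. The reason for either was not tested.

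**Figure D2:**
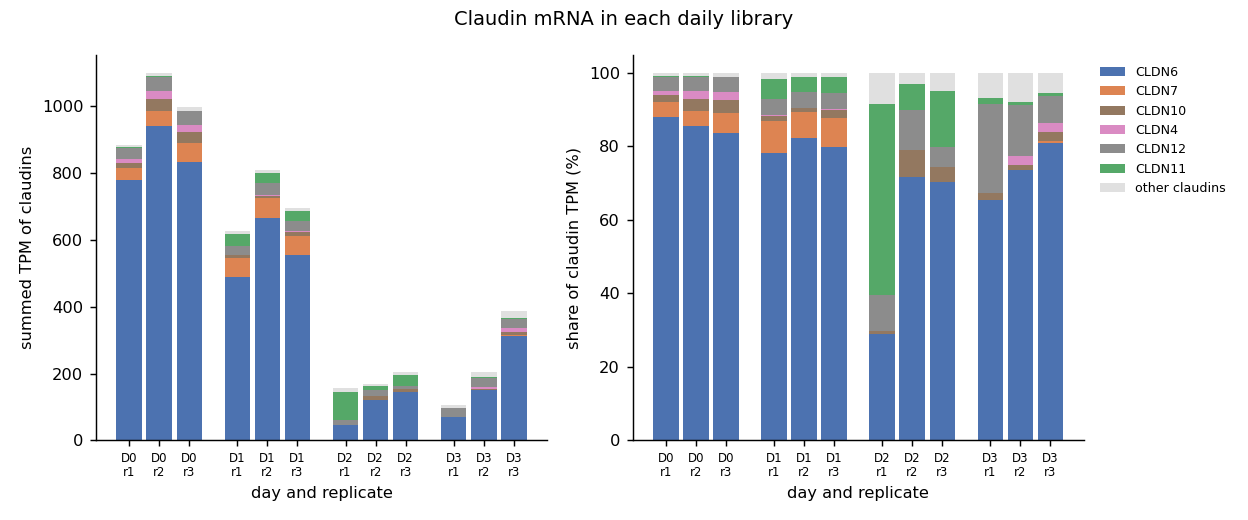
Summed TPM of 23 claudins (left) and the share of each claudin in that sum in percent (right) for each of the 12 daily libraries, D0 to D3 with replicates r1 to r3. CLDN6 is the largest part in 11 libraries, and in Day2 replicate 1 CLDN11 holds 51.9%.

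Among the 17 other claudins, 5 passed the filter in the daily series, and CLDN11 was the one called between days. Of all genes, 2.72% were called higher in Day1 against Day0 and 4.03% lower in Day3 against Day2. CLDN11 did not exceed 3.27 TPM at Day0 and was at 34.57, 31.44 and 30.72 TPM at Day1, 81.73, 12.20 and 31.23 TPM at Day2 and 1.64, 1.65 and 3.56 TPM at Day3. CLDN11 rose 17.6-fold from Day0 to Day1 (log2 4.14, SE 0.60, adjusted p = 3.22e-04) and fell 21.7-fold from Day2 to Day3 (log2 -4.44, SE 0.61, adjusted p = 1.5e-04). No member was called higher at Day1. CLDN12, a claudin without the usual scaffold-binding end, was at 32.2 to 42.9 TPM at Day0, 27.3 to 35.8 TPM at Day1, 11.3 to 18.3 TPM at Day2 and 25.5 to 28.2 TPM at Day3, and was called in the test for any change over the days but in no step.

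**Figure D3:**
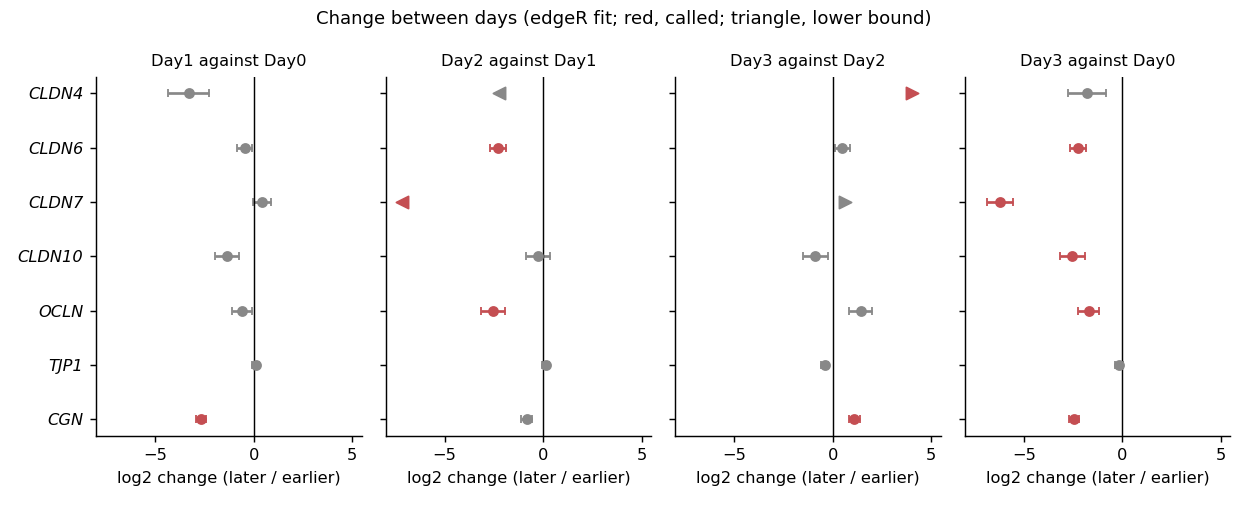
Log2 change (later over earlier day, horizontal axis) of the 7 tested members in 4 comparisons, with bars of 1 SE. Red marks called genes, grey the rest, and triangles are lower bounds where a day had 0 counts, as for CLDN7 at Day2.

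OCLN had the same order of days as CLDN6, at lower levels. It was at 19.88, 23.57 and 17.12 TPM at Day0, 11.18, 13.77 and 12.97 TPM at Day1, 0.12, 1.2 and 4.94 TPM at Day2 and 3.66, 5.22 and 9.12 TPM at Day3. Day0, Day1 and Day3 did not overlap, while Day3 overlapped Day2. It fell 5.85-fold from Day1 to Day2 (log2 -2.55, SE 0.59, adjusted p = 0.0073), and without Day2 replicate 3 the log2 change was -4.14 (adjusted p = 3.38e-04). The rise of 1.42 on the log2 scale to Day3 was not called (SE 0.59, adjusted p = 0.0914), and without Day2 replicate 3 it was 3.00 (adjusted p = 0.00249). At Day3 OCLN was 3.28-fold below Day0 (log2 -1.71, SE 0.53, adjusted p = 0.0291). This last call was lost in 5 of the 12 fits that left out 1 library (any of the Day0 libraries, Day3 replicate 1 or Day3 replicate 2; adjusted p = 0.0536 to 0.114), and also on log2(TPM + 0.1) with limma (adjusted p = 0.154). OCLN has a partial copy, OCLNP1, which holds 8.74% of the 36-base words of its transcripts, so part of its reads may be shared.

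Other membrane proteins of the tight junction were also called lower. Of 12 listed, 9 were tested, and 5 were called lower at Day3 than at Day0 (among them F11R, LSR, MARVELD2 and MARVELD3) while ILDR2 was called higher. Of all genes tested, 7.09% were called lower and 7.07% higher. The median log2 change of the 9 was -1.65. F11R (JAM-A), an adhesion molecule of the junction, fell 3.56-fold from Day1 to Day2 (log2 -1.83, SE 0.18, adjusted p = 7.51e-06), from 134 to 147 TPM to 27.5 to 48.9 TPM. LSR, which marks the corners where several cells meet, fell 2.48-fold from Day2 to Day3 (log2 -1.31, SE 0.27, adjusted p = 0.00311). MARVELD3, a relative of occludin, was 11.3-fold lower at Day3 than at Day0 (log2 -3.5, SE 0.81, adjusted p = 0.00527), and tricellulin (MARVELD2) 9.54-fold lower (log2 -3.25, SE 0.98, adjusted p = 0.0246). ILDR2, a relative of LSR, rose 3.05-fold from Day1 to Day2 (log2 1.61, SE 0.41, adjusted p = 0.0122).

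The scaffold ZO-1 and its binding partner cingulin differed from each other. TJP1 was at 82.23, 76.59 and 74.97 TPM at Day0, 79.24, 68.93 and 83.89 TPM at Day1, 73.40, 83.05 and 67.72 TPM at Day2 and 52.44, 90.30 and 62.42 TPM at Day3. All 4 days overlapped, and the adjusted p for any change was 0.27. Without Day3 replicate 2, its highest library of that day, that adjusted p was 0.0275. Its 4 log2 differences between days lay between -0.41 and 0.14, the SE was at most 0.18, and none was called (adjusted p = 0.117 to 0.817). CGN was at 61.55, 81.04 and 76.73 TPM at Day0 and already at 7.22, 12.00 and 11.94 TPM at Day1, without overlap. This was a 6.46-fold fall (log2 -2.69, SE 0.26, adjusted p = 3.89e-06), at a step where CLDN6 and CLDN7 were not called. CGN was at 3.61, 4.47 and 7.35 TPM at Day2 and 14.52, 10.53 and 14.51 TPM at Day3, and these days did not overlap. The rise from Day2 to Day3 was 2.14-fold (log2 1.10, SE 0.27, adjusted p = 0.00892). It lies near the threshold on size: it was 0.88 without Day2 replicate 1 and 0.99 without Day3 replicate 1, and with the 6 libraries of these days alone the adjusted p was 0.0804. At Day3 CGN was still 5.41-fold below Day0 (log2 -2.44, SE 0.26, adjusted p = 4e-06).

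Calls among the other scaffold and polarity genes went in both directions. All 23 listed genes were tested, and at Day3 against Day0 2 were called higher and 4 lower, with a median log2 change of -0.10. Of all genes tested, 7.07% were called higher and 7.09% lower. Paracingulin (CGNL1), the relative of cingulin, was at 55.80, 58.17 and 72.29 TPM at Day0, 3.5, 4.03 and 3.37 TPM at Day1, 8.41, 15.80 and 20.06 TPM at Day2 and 18.12, 14.00 and 33.14 TPM at Day3. It was thus called lower at Day1 like CGN (log2 -3.97, SE 0.33, adjusted p = 9.22e-07) and called higher a step earlier, at Day2 (log2 2.18, SE 0.32, adjusted p = 3.14e-04). INADL (PATJ) and PRKCI, members of the apical polarity complexes, were 3.67-fold and 2.51-fold lower at Day3 than at Day0 (adjusted p = 0.00124 and 5.11e-05). ARHGEF2, an activator of RhoA that cingulin holds at the junction, was 2.89-fold higher (adjusted p = 2.98e-05).

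Most of the epithelial regulators and partners of the junction that were tested were called lower at Day3 than at Day0. Of 17 listed, 15 were tested, and 10 were called lower and 0 higher at Day3 than at Day0, with a median log2 change of -5.20. Of all genes tested, 7.09% were called lower and 7.07% higher. E-cadherin (CDH1) was at 258 to 328 TPM at Day0, 141 to 151 TPM at Day1, 4.98 to 30.04 TPM at Day2 and 5.54 to 7.16 TPM at Day3, a fall of 44.5-fold from Day0 to Day3 (log2 -5.48, SE 0.43, adjusted p = 1.53e-07). EPCAM, which binds CLDN7, fell 36.7-fold (log2 -5.20, SE 0.45, adjusted p = 4.11e-07). The epithelial splicing regulator ESRP1 fell 151-fold (log2 -7.24, SE 0.48, adjusted p = 2.17e-08). KLF5 was called higher in Day1 against Day0 (log2 3.44, SE 0.75, adjusted p = 0.00876) and lower in Day2 against Day1 (log2 -4.73, SE 0.86, adjusted p = 0.00153). In the last step, in which CGN and CLDN4 were called higher, CDH1, EPCAM and ESRP1 were called lower (adjusted p = 0.00299, 6.64e-04 and 0.0188). The difference between these patterns was not tested.

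Repressors of the epithelial state were called higher across the same days. Of 11 listed, 8 were tested, and 5 were called higher and 0 lower at Day3 than at Day0, with a median log2 change of 2.94. Among the 5 was FOXC2, which is also listed as a somite marker. Of all genes tested, 7.07% were called higher and 7.09% lower. SNAI2, a repressor that binds CAGGTG, went from 0 to 3.67 TPM at Day0 to 9.15 to 15.85 TPM at Day1, 22.6 to 41.3 TPM at Day2 and 99.2 to 265 TPM at Day3, and was called higher in each step. ZEB2 was 11.2-fold higher at Day3 than at Day0 (log2 3.49, SE 0.25, adjusted p = 5.68e-08) and ZEB1 5.28-fold higher (log2 2.40, SE 0.35, adjusted p = 1.2e-04). SNAI1 rose 16.1-fold at Day1 (log2 4.01, SE 0.76, adjusted p = 0.00335), at 20.6 to 23 TPM, and fell from Day2 to Day3 (log2 -3.32, SE 0.74, adjusted p = 0.0051).

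Markers of other tissues that use claudins were looked at in the same libraries. Of 10 definitive endoderm markers, the sum was 20.2 to 40.4 TPM at Day0, 694 to 1040 TPM at Day1, 94.3 to 126 TPM at Day2 and 32.4 to 66.7 TPM at Day3. The rise at Day1 included the called genes CER1 and GATA4, with HNF4A at 0. The 12 surface ectoderm and trophoblast markers summed to at most 39.4 TPM in any daily library, with CGA, CGB and ELF5 at 0 on all 4 days, and the 8 kidney tubule and intermediate mesoderm markers to at most 19.1 TPM. The 12 endothelium markers summed to 111 to 154 TPM at Day0 and 16.4 to 36.6 TPM at Day2. The 12 neural markers, which include SOX2, summed to 663 to 1003 TPM at Day0, 1351 to 1496 TPM at Day2 and 1672 to 1802 TPM at Day3. In Day3 against Day0, 2 of the 12 were called higher (NES and STMN2) and 0 lower, against 7.07% and 7.09% of all genes. From Day2 to Day3, 1 was called higher and 3 lower, against 9.03% and 4.03% of all genes. The part of all these markers in the values of the members was not tested.

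The time course, labelled presomitic mesoderm, gave levels of the members at closer spacing. Stage markers changed over its hours: the 5 somite markers summed to 12 to 1370 TPM over the 46 libraries. All 4 somite markers tested had a trend called higher, against 5.78% of all genes. Of 5 presomitic markers tested, 4 had a trend called lower, against 6.34% of all genes. Medians over the course below are therefore not levels of a fixed stage. CLDN6 was at 151 to 474 TPM over the 46 libraries with a median of 305 TPM, above all 3 Day2 libraries, whose highest value was 144.67 TPM. The course and the days were not tested against each other. CLDN7, at 0 in each Day2 library, had a median of 3.21 TPM and was at 0 in 2 of 46 course libraries, and CLDN4 had a median of 3.43 TPM and was at 0 in 3 of 46. OCLN had a median of 4.2 TPM, CLDN10 of 8.18 TPM, CGN of 10.97 TPM and TJP1 of 50.7 TPM. TJP1 was at 31.3 to 67.53 TPM over the 46 libraries, below all 3 Day2 libraries, whose lowest value was 67.72 TPM. This difference was not tested either. All 7 members tested in the daily series were tested here too, among 13653 genes.

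TJP1 and CGN were the members called as differing among the time points (adjusted p = 2.82e-04 and 2.41e-07), 2 of 7 members against 28.9% of all genes. DESeq2 called 5 of the 7, adding CLDN6, CLDN7 and CLDN10, beside 5507 of all 13653 genes. TJP1 was at 38.92 and 39.17 TPM at 30 min, 67.53 and 64.38 TPM at 420 min, 34.53 and 33.54 TPM at 600 min, and 66.84 and 60.20 TPM at 690 min. Between these time points the means moved up and down as well, with libraries at 34.31 and 56.07 TPM at 450 min, 32.39 and 47.45 TPM at 510 min and 54.44 and 57.83 TPM at 540 min. No linear trend was called (fitted log2 change over the course 0.14, SE 0.12, adjusted p = 0.424). CLDN7 was at 5.06 and 9.91 TPM at 450 min and at 0.62 and 1.47 TPM at 480 min, but its difference among time points was not called (adjusted p = 0.223), and these levels rest on 15, 32, 2 and 4 counts.

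**Figure D4:**
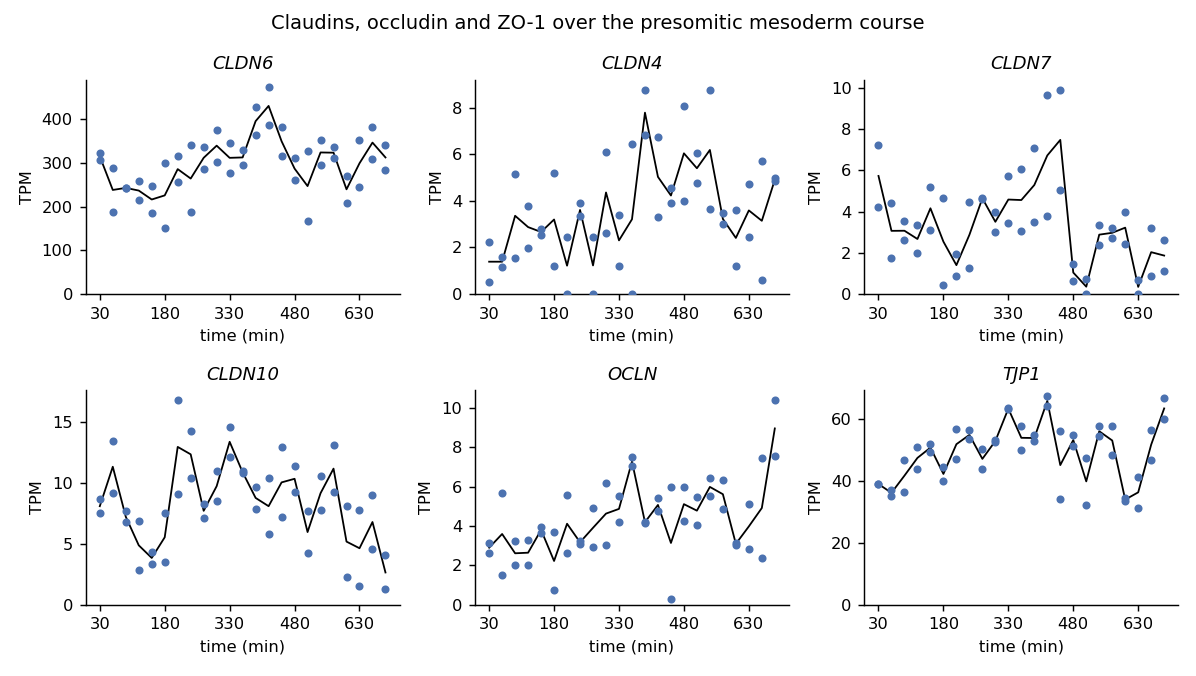
TPM (vertical axes from 0) against time in min for 6 members in the 46 libraries of the presomitic mesoderm course, 2 points per time point, with a line through the means. TJP1 has its highest mean at 420 min and its lowest at 600 min, and CLDN6 stays between 151 and 474 TPM.

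CGN rose over the course, though not steadily. It was at 3.69 to 7.38 TPM (median 4.79) in the 6 libraries of the first 3 time points and at 7.45 to 17.34 TPM (median 10.97) in those of the last 3, without overlap. Its highest mean, 18.8 TPM, was at 480 min, from libraries at 16.18 and 21.51 TPM. By windows, its mean was 8.02 TPM at 210 to 270 min, 15.06 TPM at 300 to 360 min and 10.37 TPM at 660 to 690 min. The fitted rise was 2.84-fold (log2 1.5, SE 0.25, adjusted p = 2.37e-06), which made it 1 of 7 members called higher, against 5.78% of all genes. DESeq2 called CLDN4 as well. No member was called lower over the course by edgeR or DESeq2, against 6.34% of all genes called lower by edgeR. In that direction 0 members were at an unadjusted p under 0.05. In the last 3 against the first 3 time points, however, CLDN7 and CLDN10 were called lower (log2 -1.80 and -1.0015, adjusted p = 0.0435 and 0.019). OCLN had a fitted log2 rise of 0.90 (SE 0.30, adjusted p = 0.0137) and stayed under the threshold of 1 log2 unit. It was called without all replicate 1 libraries (log2 1.4, adjusted p = 0.0114), without replicate 1 of 60 min (1.04, 0.00622) and without replicate 1 of 660 min (1.03, 0.00445), and was at 0.41 without all replicate 2 libraries. CLDN6 was at 0.31 (SE 0.13, adjusted p = 0.0673), CLDN4 at 1.2 (SE 0.56, adjusted p = 0.0908, and 0.0463 without replicate 2 of 660 min), CLDN10 at -0.43 (SE 0.34, adjusted p = 0.351) and CLDN7 at -0.94 (SE 0.60, adjusted p = 0.237).

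Other claudins and junction partners were called over the same hours. CLDN11 fell 18.3-fold (log2 -4.19, SE 0.24, adjusted p = 1.62e-22), from 61.44 and 52.85 TPM at 30 min to 5.30 and 9.25 TPM at 690 min. CLDN2, the claudin that forms channels for cations and water, was at 0 in all 4 libraries of 30 and 60 min and at 4.77 and 2.68 TPM at 690 min, with a called trend (adjusted p = 1.54e-10). CLDN23 and CLDN1 were called lower (adjusted p = 3.8e-04 and 0.0272), so that of 9 other claudins tested 1 was called higher and 3 lower. Of all genes, 5.78% were called higher and 6.34% lower. CLDN1 was low, at 0 to 20 counts per library, with like levels in the first 3 (mean 0.467 TPM) and last 3 time points (mean 0.417 TPM) and its highest level at 150 min (3.31 and 1.85 TPM). CGNL1 rose 13.0-fold (log2 3.70, SE 0.18, adjusted p = 7.03e-26), from 5.89 and 6.96 TPM at 30 min to 72.34 and 92.90 TPM at 690 min. Of 9 repressors tested, 4 were called higher and 2 lower. SNAI2 rose 8.17-fold, TWIST1 10.4-fold and FOXC2, also listed as a somite marker, 27.3-fold (adjusted p = 4.56e-16, 2e-19 and 1.76e-15). SNAI1 fell 25.7-fold (adjusted p = 2.94e-18). Of 13 epithelial regulators and partners tested, 1 was called higher and 2 lower. KLF4 rose 25.0-fold, while PRSS8 fell 2.59-fold and ESRP1 3.74-fold (adjusted p = 2.3e-13, 3.86e-06 and 0.00259).

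**Figure D5:**
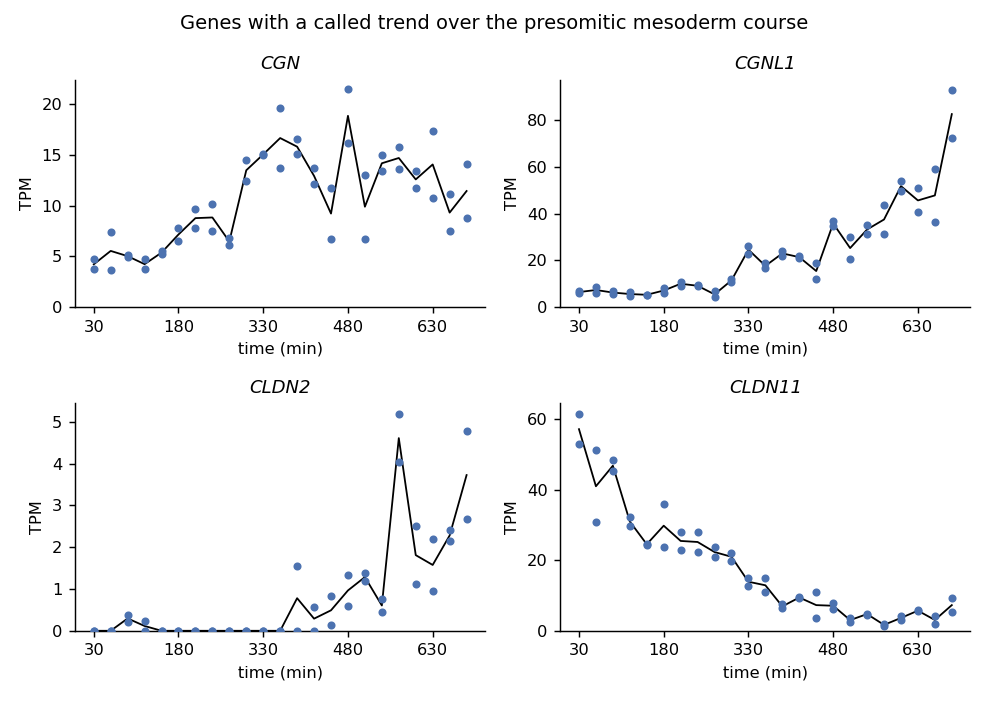
TPM (vertical axes from 0) against time in min for CGN, CGNL1, CLDN2 and CLDN11 in the 46 course libraries, 2 points per time point, with a line through the means. CLDN11 falls from 61.44 and 52.85 TPM at 30 min while CGNL1 reaches 72.34 and 92.90 TPM at 690 min.

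The segmentation clock gene HES7 cycles in presomitic mesoderm, so a rhythm with a period of 300 min was fitted to each gene. No member was called rhythmic by edgeR or DESeq2, against 0.132% of all genes called by edgeR. At an unadjusted p under 0.05 in edgeR there were 0 of 7 members, beside 1725 of all 13653 genes. None of the 5 presomitic markers tested, HES7 among them, was called rhythmic either, so this fit did not detect the clock gene that prompted it. The adjusted p of the members ran from 0.495 (CLDN10) to 0.951 (OCLN). Only 18 of the 13653 genes were called, and DESeq2 called 195.

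Among the members, levels across the 12 daily libraries were most alike for CLDN6 and CLDN7 (Pearson r 0.926 of log2 CPM), then for CLDN6 and OCLN (0.877), while TJP1 had r between -0.348 and 0.084 with the other 6. These values describe libraries of 4 days that share their day and its depth, and no test was made of them. The 5 genes most like CLDN6 by the same measure were JUP (r 0.985), SKA3 (0.982), KIAA1804 (0.978), SEC24A (0.974) and VTA1 (0.971). JUP encodes plakoglobin, a protein of adherens junctions and desmosomes, and its mean went from 42.2 TPM at Day0 to 33.1, 8.45 and 13.6 TPM at Day1, Day2 and Day3.

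Some members share sequence or position with other genes. CLDN3 and CLDN4 share 2.91% of the 36-base words of CLDN3, and CLDN6 shares 13% of its words with 4 other genes. DZIP1, which overlaps CLDN10 on the other strand, was at 16.25 to 18.7 TPM at Day1, 14.25 to 15.34 TPM at Day2 and 20.08 to 33.72 TPM at Day3, above CLDN10 in every library of these days. TNFRSF12A, which overlaps CLDN6 on the other strand, was at 7.52 to 18 TPM at Day0, 16.2 to 26.9 TPM at Day1 and 0 to 5.3 TPM at Day2, far below CLDN6 at each of these days. The other members shared less than 3% of their words with any other gene, apart from CLDN7 with the readthrough gene AC003688.1 (10%) and OCLN with OCLNP1.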

How the data were processed

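RNA-seq libraries of H1 cells were made by ligation-mediated sequencing, per the labels' protocols. The submitters' processing notes name Bowtie 0.12.2 and list hg19 together with mm8 as builds, and strand use is not stated. The authors deposited expected counts and TPM values per gene. After rounding to integers, the expected counts were fitted with edgeR 4.0.16 in R 4.3.3 (filterByExpr, TMM, quasi-likelihood test), with all 12 daily libraries in 1 fit and all 46 course libraries in another, and Benjamini-Hochberg adjustment over all genes tested. A call needed an adjusted p under 0.05 and, between days and for the trend, an absolute log2 change of at least 1. Time points were compared in a test with 22 degrees of freedom, a linear trend and a rhythm of 300 min. Levels are the deposited TPM, and folds against 0 counts use a floor of 3 counts over the group.

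All 9 members were described. From each other list, up to 4 genes per comparison were named by rule from those called, CLDN12 and the course values of CLDN7 were chosen after their values were seen, and the genes most like CLDN6 were the 5 with the highest Pearson r of log2 CPM (prior count 2) among genes reaching 20 CPM. The members and lists were chosen with earlier results of these data known. Alternatives were DESeq2 1.42.0, no TMM, no filter, limma 3.58.1 on log2(TPM + 1) and log2(TPM + 0.1), a replicate block, pair-only libraries, other periods and libraries left out. The fits of Day1 against Day0 and of the linear trend were tested on simulated data, and the other comparisons were not. No 2 replicates differed by less than sampling noise: the smallest chi-square per gene was 7.78 in the daily series and 3.74 in the course. Some genes of the lists are not reported here by name.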

Additional observations from a re-analysis of the deposited data

How the results depend on the processing

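Over 56 results for single members, 1417 of 1472 values under other settings kept their side of the threshold, and their direction where direction was compared. Many of these values were of results not called, among them the rhythm, in which 0 members were called under any setting. The total therefore says little about the called results. OCLN in Day3 against Day0, for example, stayed called in 7 of the 12 fits that left out 1 library. Numbers of members called moved as follows, and the cause was not tested. Day1 against Day0 gave 1 member, and 2 with DESeq2, 2 with no filter, 2 on log2(TPM + 1), 3 with the 6 libraries of the pair and 1 to 2 when single libraries were left out. Day2 against Day1 gave 3, and 5 on log2(TPM + 0.1). Day3 against Day2 gave 2, and 0 with the 6 libraries of the pair and 1 to 3 with single libraries left out. The difference among time points gave 2, and 5 with DESeq2, 4 with no filter and 4 on log2(TPM + 1). The trend gave 1, and 2 with DESeq2, 3 for the last 3 against the first 3 time points (CGN higher, CLDN7 and CLDN10 lower) and 1 to 2 with libraries left out.

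Signs that reversed belonged to differences that were not called. TJP1 in Day1 against Day0 was -0.0142 on log2(TPM + 1) and -0.0144 on log2(TPM + 0.1), and in Day2 against Day1 it was -0.0121 with no TMM, -0.0495 on log2(TPM + 1) and -0.0501 on log2(TPM + 0.1). With single libraries left out, CLDN10 in Day2 against Day1 ran from -0.905 to 0.236 (0.0233 without Day1 replicate 3 and 0.236 without Day2 replicate 1). In Day3 against Day2, CLDN6 ran from -0.155 to 0.858 and CLDN7 from 0 to 4.62, the lowest of each being without Day3 replicate 3.

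Numbers of all genes called moved over 1.5 times in Day1 against Day0 (661, and 1139 with the pair's libraries, 435 without Day1 replicate 1), Day2 against Day1 (1499, and 864 without Day1 replicate 2), Day3 against Day2 (1668, and 1008 with the pair's libraries, 964 without Day3 replicate 3) and the rhythm (18, and 195 with DESeq2, 644 with no filter, 1 on either TPM scale, 2 at 270 min and 615 at 330 min). On log2(TPM + 1) the split was 292 higher and 1618 lower in Day2 against Day1, 2066 and 308 in Day3 against Day2, and 326 and 449 in Day1 against Day0. On log2(TPM + 0.1) it was 273 and 1605, then 1923 and 278, for the first pair of these.

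With the replicate number as a block, the members called stayed at 6, 1, 3, 2, 5, 2, 1 and 0 over the 8 tests. Replicate numbers did not pair the daily libraries: same-numbered libraries deviated with r between -0.243 and 0.288, and 3 of 18 pairs were over 0.1. The test among time points was not run with single libraries left out. Depth limits CLDN3, CLDN4, CLDN5 and CLDN7 most, since 3 counts are 0.833 to 0.949 CPM at Day2.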
